A study of Mus musculus with 11 samples.

Results

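Translation factors are the proteins that carry a ribosome on to a messenger RNA, along it and off it. The 52 genes described here carry the symbols of initiation factors (Eif1 to Eif6), elongation factors (Eef1 and Eef2) and the release factor Etf1. Some of them encode kinases, inhibitors or methyltransferases that act on these factors. A gene was taken when a probe set of the array carried 1 such symbol and no other, with the Y-linked Eif2s3y left out. Each gene was represented by its probe set with the highest mean signal over the 11 arrays. The 52 genes had 122 probe sets, of 12393 genes and 22626 probe sets in all. Of these genes, 51 passed the filter on low signal and were tested. Eef2kmt, a methyltransferase of elongation factor eEF2, had a signal of 7.60 to 34.9 on all arrays and was not tested.

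The arrays measured RNA of lymphomas that arose in mice carrying the E-mu-BRD2 transgene on the FVB background, in which the immunoglobulin heavy chain enhancer E-mu directs the BET protein BRD2 to B lineage cells. The labels divide these lymphomas by severity, here into 5 transitional and 6 marginal ones with 1 array each, all recorded as oligoclonal. Spleen enlargement was graded for every animal: marginal 1 had a marginal grade, marginal 2 to 4 and transitional 3 a mild one, marginal 5 and 6 a moderate one, transitional 4 and 5 a moderately severe one, and transitional 1 and 2 a severe one. The labels record failure to nest for 5 of 5 transitional animals and for 2 of 6 marginal ones, and the other 4 marginal animals had a neck, leg or haunch tumor or paralysis. All these groups carried the transgene, and no arrays of B cells without a lymphoma were analysed here. The labels name no dissected tissue, age or sex.

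In cap-dependent initiation, eIF4E binds the cap of the messenger, eIF4G and the helicase eIF4A are recruited to it, and the scaffold eIF3 brings in the small ribosomal subunit loaded with eIF2, GTP and initiator tRNA. Cells slow this process mainly at a pair of points: the 4E-BP proteins hold eIF4E away from eIF4G unless mTOR phosphorylates them, and 4 kinases phosphorylate eIF2α, which then blocks the exchange factor eIF2B while a few messengers such as Atf4 are translated more. Elongation is slowed separately, by the kinase Eef2k acting on eEF2. Many of the factors are themselves encoded by messengers that begin with a run of pyrimidines (TOP messengers) and whose translation follows mTOR. The arrays report messenger levels, not protein, phosphorylation or translation.

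Marker genes were checked against the lymphoma label before the values were read. The summed signal of 7 B cell markers (Cd79a, Cd79b and others) was 6175 to 66195 in transitional lymphomas and 21964 to 78535 in marginal ones. No marker of any list was at 0 on every array, though some were dim. Transitional 4 and 5, the moderately severe animals, stood apart with B cell sums of 9576 and 6175, against 43142 to 66195 in transitional 1 to 3. Their summed signal of 7 erythroid markers (Alas2, Slc4a1 and others) was 61287 and 53146, against 1037 to 5645 in transitional 1 to 3 and 16380 to 46100 in marginal lymphomas. Their granulocyte marker sums were 154412 and 88217, and their T and NK cell marker sums 2082 and 725, against 8839 to 43478 and 10604 to 21928 in transitional 1 to 3. In bulk RNA, fewer cells of a type and less RNA per cell cannot be told apart.

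The start regions of 4 genes on which the results turn are shown as RefSeq annotates them on GRCm38.p6, all on the plus strand and read 5′ to 3′. For Eif2ak1, Eef2k and Eif2ak3, whose signals differed most between the severe spleen grades in each direction, the 250 bases before the annotated start are given. Capitals mark matches, on either strand, to the CACCC box searched as CCNCNCCC, which erythroid KLF factors and SP factors can bind, and to the GATA words AGATAA, its variant AGATAG with a final G, TGATAA and, likewise, TGATAG.
Eif2ak1 (chr5:143817542-143817791): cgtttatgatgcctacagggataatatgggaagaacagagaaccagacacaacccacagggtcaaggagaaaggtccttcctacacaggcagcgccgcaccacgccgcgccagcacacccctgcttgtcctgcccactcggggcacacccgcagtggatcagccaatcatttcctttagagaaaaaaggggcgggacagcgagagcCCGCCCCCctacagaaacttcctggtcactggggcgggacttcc
Eef2k, the most upstream of 3 annotated starts (chr7:120842581-120842830): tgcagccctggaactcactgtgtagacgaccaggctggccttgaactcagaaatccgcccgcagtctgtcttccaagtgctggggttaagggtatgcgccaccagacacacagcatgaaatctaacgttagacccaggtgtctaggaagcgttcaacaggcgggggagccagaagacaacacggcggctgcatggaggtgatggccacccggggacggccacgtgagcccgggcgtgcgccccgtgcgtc
Eif2ak3 (chr6:70844265-70844514): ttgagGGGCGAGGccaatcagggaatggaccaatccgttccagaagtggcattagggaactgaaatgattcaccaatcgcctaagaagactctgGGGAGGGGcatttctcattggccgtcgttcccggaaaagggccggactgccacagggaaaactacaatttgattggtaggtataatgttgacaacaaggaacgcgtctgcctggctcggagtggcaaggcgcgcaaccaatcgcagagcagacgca
The Eif2ak1 window held 1 CACCC match and 0 GATA matches, the Eef2k window held neither, while the windows of its other 2 starts held 2 CACCC matches and 1 GATA match, and the Eif2ak3 window held 2 CACCC matches and 0 GATA matches. A CACCC match stood in 60.7% of the 56 promoters of 41 matched translation factor genes and in 45.9% of all 32851 promoters, and a GATA word in 8.93% and 26.5% of them. A match is only a match of letters in this window.
The fourth region, of the scaffold subunit gene Eif3f, runs from 10 bases before to 20 after the start, with the pyrimidine run from the start in capitals.
Eif3f (chr7:108934405-108934434): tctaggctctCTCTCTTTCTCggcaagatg
The Eif3f run is 11 bases long, as is that of Eif2s3x. An annotated start on C followed by pyrimidines, for a run of at least 5, was found for 2 of the 56 promoters, those of Eif3f and Eif2s3x (3.57%), and for 2.51% of all promoters.

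The first question was whether translation factor messengers differed between transitional and marginal lymphomas. None passed the test: 0 of 51 genes had a limma adjusted p under 0.05, beside 0% of all 13576 tested probe sets, and 0 of 51 had an unadjusted p under 0.05, beside 3.34% of all tested probe sets. The class signals of the 51 genes overlapped without exception, while 0.228% of all tested probe sets did not overlap between classes. Log2 differences, taken on log2(signal + 16) as transitional minus marginal, were above 0 for 37 genes and below 0 for 14. Their median was 0.09 and their range -0.39 to 0.56, beside a median of -0.06 over all tested probe sets. Of the 11 eIF3 subunits, 10 had a difference above 0 (median 0.20). So did 3 of 3 genes listed with eIF2, 3 of 4 eIF2B genes and 6 of 7 genes listed with the elongation factors. The same held for 7 of 10 genes of cap recognition and 4 of 6 of start codon recognition and subunit joining. The eIF2α kinases had 1 of 4 above 0 (median -0.14), the elongation regulators 1 of 3 (median -0.11) and the 4E-BP genes 1 of 2. With quantile normalization the eIF3, eIF2, eIF2B and elongation counts were 9 of 11, 2 of 3, 3 of 4 and 5 of 7.

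Eif2ak2, encoding the double-stranded RNA sensor kinase PKR, came nearest to the threshold. Its signal was 159, 168, 150, 174 and 180 in transitional 1 to 5, and had a low of 52.0, a median of 103 and a high of 206 in marginal lymphomas. Transitional values lay close together and above 5 of the 6 marginal arrays, and marginal 5 exceeded them all. The difference was 0.56 ± 0.27 (SE; limma adjusted p = 0.999). A dimmer second Eif2ak2 probe set gave -0.03 ± 0.33, so that the direction was not shared by both.

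Eif3l, a subunit on the edge of the eIF3 complex, had signals of 3192, 5006, 4795, 4129 and 4167 in transitional 1 to 5, against 3173 to 3654 in marginal lymphomas (median 3388). Transitional 1 was the array that kept the classes overlapping, and the difference was 0.31 ± 0.15 (SE; limma adjusted p = 0.999). Another, dim Eif3l probe set gave 0.01 ± 0.28 (SE). Etf1, the eRF1 protein that reads stop codons, had 1272, 1822, 1243, 2035 and 2036 in transitional 1 to 5, against 978 to 1610 in marginal lymphomas (median 1234). Its difference was 0.38 ± 0.20 (SE; limma adjusted p = 0.999), with transitional 1 and 3 inside the marginal range. Its 3 other tested probe sets gave 0.12, 0.22 and 0.83, the last with an SE of 0.24 and an adjusted p of 0.999.

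On the lower side, Eef1aknmt, a methyltransferase that modifies eEF1A, was a dim gene with 29.7 to 89.1 in transitional lymphomas (median 59.4), against 55.4 to 115 in marginal lymphomas (median 81.2). The classes overlapped and the difference was -0.39 ± 0.27 (SE; limma adjusted p = 0.999). The second 4E-BP gene, Eif4ebp2, had 784, 652, 501, 682 and 634 in transitional 1 to 5, against 621 to 857 in marginal lymphomas (median 729), a difference of -0.19 ± 0.17 (SE; limma adjusted p = 0.999). Eif4g3, the eIF4G paralogue eIF4GII, gave -0.32 ± 0.27 (SE; limma adjusted p = 0.999), which turned to 0.12 without transitional 4 and 5.

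**Figure D1:**
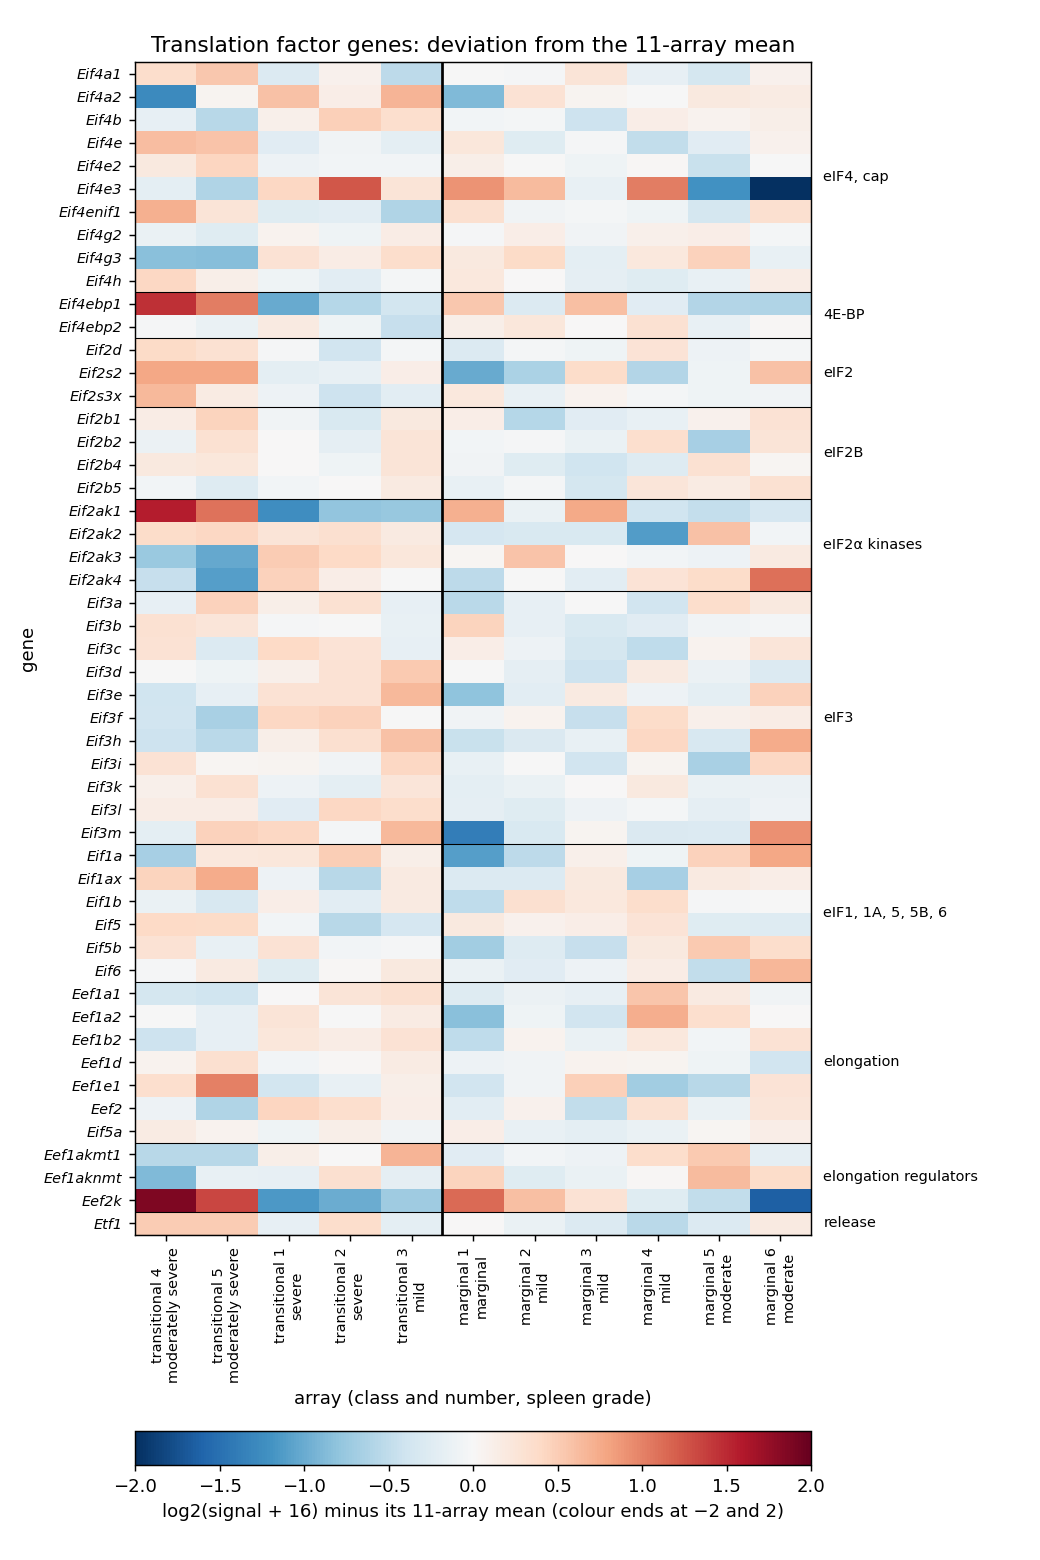
Log2(signal + 16) of the 51 tested genes minus each gene's mean over the 11 arrays, with genes in rows grouped by role and arrays in columns (transitional lymphomas left of the black line, marginal lymphomas right of it; spleen grade under each array). Colour ends at -2 and 2; Eef2k, Eif2ak1 and Eif4ebp1 are darkest red in transitional 4 and 5, and Eif4e3 and Eef2k are dark blue in marginal 6.

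The second question was whether the messengers followed spleen grade from marginal to severe, ranked 1 to 5. None of 51 genes passed, beside 0% of all tested probe sets, either with grade alone or with class also in the model. With grade alone, 2 of 51 genes had an unadjusted limma p under 0.05, and with class in the model 1 of 51 had. The share of all tested probe sets under that p is not given here for these fits, so nothing is read from these counts. Eif3a, the largest scaffold subunit of eIF3, had a slope of 0.16 ± 0.07 log2 per grade step (SE; limma adjusted p = 0.9996), with signals of 4681 to 7206 in transitional lymphomas (median 5677) and 3590 to 6714 in marginal ones (median 4971). Eif2ak2 had a slope of 0.23 ± 0.10 (SE; limma adjusted p = 0.9996), and Etf1 one of 0.14 ± 0.08 with the same adjusted p. The slopes nearest to the threshold on the lower side were -0.11 ± 0.11 for Eif4g3, -0.04 ± 0.05 for Eif4g2, which encodes the eIF4G-like protein DAP5, and -0.18 ± 0.24 for Eef2k (SE; limma adjusted p = 0.9996 for each). Eif4g2 varied little, with 8089 to 10701 in transitional lymphomas (median 9029) and 9129 to 10568 in marginal ones (median 9871). The Eif4g3 slope was 0.0087 without transitional 4 and 5. With class in the model, 4 genes passed when transitional 3 was left out (Eif2ak4, Eif1a, Eif4ebp1 and Eef2k, 2 in each direction). That is 4 of 51, beside 8.44% of all tested probe sets (1146).

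The remaining question was how the 2 moderately severe animals (transitional 4 and 5) differed from the 2 severe ones (transitional 1 and 2), a contrast in which class and recorded sign are the same. Here 7 of 51 genes passed at a limma adjusted p under 0.05, beside 24.3% of all 13576 tested probe sets. Eef2k, Eif2ak1, Eif4ebp1 and Eif4e rose in the moderately severe lymphomas, and Eif2ak3, Eif4g3 and Eif3f fell. That is 4 higher and 3 lower, beside 9.4% and 14.9% of all tested probe sets. The log2 difference was above 0 for 26 genes and below 0 for 25, with a median of 0.05, against -0.22 over all tested probe sets, and a range of -1.34 to 2.68. The 2 pairs of arrays did not overlap for 39 of the 51 genes, beside 69.8% of all tested probe sets.

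The contrast rests on 2 arrays a grade, with the spread taken from all 5 grades, and the markers moved with it. Of the tested markers, 6 of 6 erythroid and 4 of 8 granulocyte genes rose in the moderately severe lymphomas, and 6 of 7 B cell and 6 of 7 T and NK cell genes fell. The erythroid marker Hba-a1 was too dim to be tested. Of 7 interferon response genes 1 rose and 3 fell, of 2 stroma genes 1 fell, and of 8 macrophage genes none passed. Macrophage marker sums were 3979 and 4700 in transitional 4 and 5, against 1669 and 38292 in transitional 1 and 2. Transitional 2 stood apart there and in its stroma sum of 6261, which was 240 to 1334 on the other 10 arrays. The part of these cells in the values that follow was not tested. The call of 7 genes became 3 without transitional 1, when 9.35% of all tested probe sets passed. It became 4 without transitional 2, 4 or 5, when 13.7%, 10.8% and 6.19% of them passed. Scaling each array to a common median called 13 genes, all higher, and no lower one, while moving the median of all tested probe sets to 0.18. Under it, 66.9% of all calls were higher, against 38.7% as deposited, and quantile normalization gave 3 higher and 2 lower genes with 49.0% of all calls higher.

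**Figure D2:**
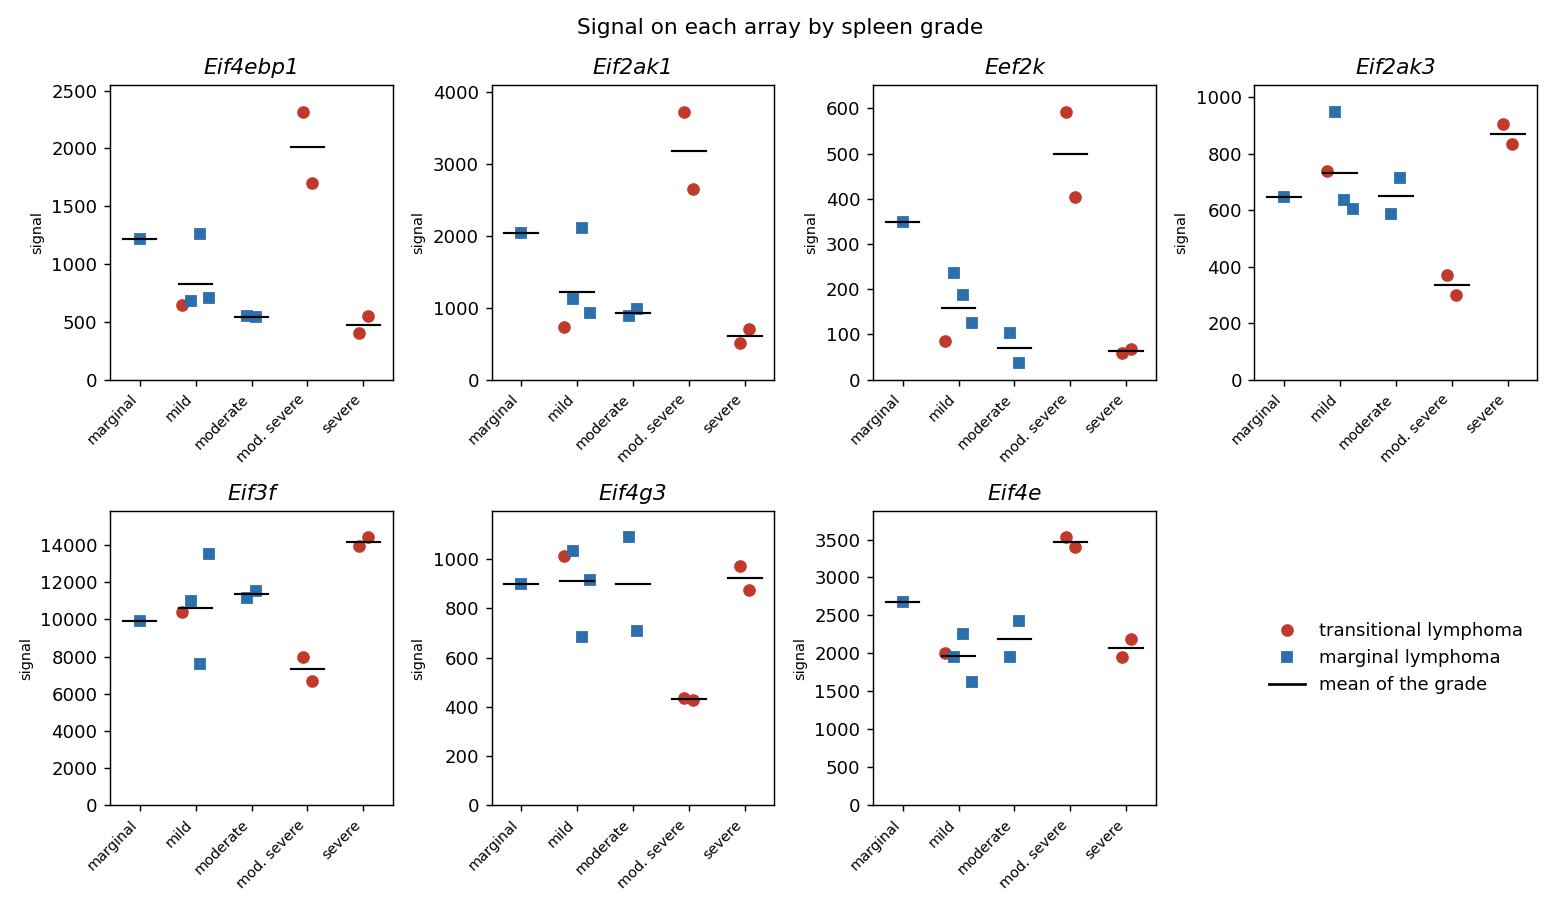
MAS5 signal (linear axes from 0) of the 7 genes that passed the test between moderately severe and severe animals, on each array by spleen grade from marginal to severe. Points are arrays (red circles transitional, blue squares marginal) and bars are grade means; the moderately severe arrays are the highest for Eif4ebp1, Eif2ak1, Eef2k and Eif4e and the lowest for Eif2ak3 and Eif4g3.

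Among the genes of cap recognition, Eif4e itself rose. Its signal was 3527 and 3405 in transitional 4 and 5, against 1955 and 2185 in transitional 1 and 2, with 2011 in transitional 3 and 1630 to 2679 in marginal lymphomas (median 2108). Both moderately severe arrays exceeded all 9 others, and the difference was 0.74 ± 0.24 (SE; 1.67-fold; limma adjusted p = 0.0483). A second Eif4e probe set rose by 1.26 ± 0.29 (SE; limma adjusted p = 0.0130), and another, dim one gave 0.65 ± 0.38 without passing. The call of the brightest probe set was lost without any 1 of the 5 transitional arrays or without marginal 2 (adjusted p 0.0534 to 0.201). It was also lost with quantile normalization (0.58, adjusted p = 0.110), with no filter (adjusted p = 0.0623) and with eBayes without the intensity trend (adjusted p = 0.0667).

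Eif4g3 fell, with 436 and 429 in transitional 4 and 5, against 971 and 875 in transitional 1 and 2, 1013 in transitional 3 and 684 to 1088 in marginal lymphomas (median 909). The moderately severe arrays were the lowest of all, below the next by a wide gap, and the difference was -1.06 ± 0.30 (SE; 2.09-fold lower; limma adjusted p = 0.0280). The call was lost without transitional 1, 2, 4 or 5 (adjusted p 0.0810 to 0.126) and under both other scalings.

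The other 8 tested genes of this role did not pass. Eif4e3, an atypical cap-binding protein of the eIF4E family, had the widest range of all 52 genes over the arrays, 3.53 on the log2 scale. Its signal was 326 and 242 in transitional 4 and 5, against 504 and 909 in transitional 1 and 2, with 452 in transitional 3, and 716, 591, 339, 781, 154 and 64.1 in marginal 1 to 6. Both moderately severe arrays were below both severe ones (-1.22 ± 0.47 SE; limma adjusted p = 0.0850, and 0.0407 with array weights), but the 2 marginal lymphomas with moderate spleens were lower still. Eif4a1 and Eif4a2, which encode related forms of the helicase eIF4A, had differences of opposite sign, 0.53 ± 0.28 and -0.96 ± 0.40 (SE; limma adjusted p = 0.189 and 0.101). Eif4a2 was 2235 in transitional 4 but 5603 in transitional 5, and it passed only without transitional 5 (-1.62, adjusted p = 0.0380).

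Of the cap-binding inhibitors, Eif4ebp1 rose. Its signal was 2317 and 1698 in transitional 4 and 5, against 403 and 550 in transitional 1 and 2. Transitional 3 had 642, and marginal lymphomas had 542 to 1259 (median 694), with the 2 highest marginal values in marginal 1 and 3. These were again the highest of the 11 arrays, and the difference was 2.04 ± 0.35 (SE; 4.11-fold; limma adjusted p = 0.0057). A second probe set rose by 1.35 ± 0.36 (SE; limma adjusted p = 0.0227). Eif4ebp2 gave -0.12 ± 0.30 in the same contrast (SE; limma adjusted p = 0.802), and the values of the pair lay apart, although the difference between the genes was not tested. Other tested Eif4ebp2 probe sets gave 0.001, 0.17 and -1.02, and none passed (limma adjusted p = 0.0780 for the last).

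The eIF2 complex carries the initiator tRNA to the ribosome, and the exchange factor eIF2B recharges it with GTP. Its β and γ subunit genes Eif2s2 and Eif2s3x, and Eif2d, a separate factor that delivers tRNA without GTP and was listed with them, had differences of 0.94, 0.66 and 0.55, of which none passed as deposited (adjusted p 0.0757 to 0.131) and all 3 rose under median scaling. Eif2s2, the β subunit, had 10011 and 9982 in transitional 4 and 5, against 5141 and 5279 in transitional 1 and 2, and 2917 to 8795 in marginal lymphomas (median 4726). Its moderately severe arrays were the highest of all, but the marginal arrays spanned a wide range, and the difference did not pass (0.94 ± 0.36 SE; limma adjusted p = 0.0820). One of 5 other tested Eif2s2 probe sets rose, by 1.22 (limma adjusted p = 0.0242). Brighter ones gave 0.77, 0.72 and 0.62, and a dim one gave -0.81, and none of these passed. For Eif2s3x, 1 of 2 other probe sets rose, by 0.84 (limma adjusted p = 0.0307). Other tested Eif2d probe sets gave 0.07 and -0.74, and neither passed. The α subunit gene Eif2s1, which the kinases phosphorylate, had no probe set of its own in the annotation used and was not analysed here. The 4 tested eIF2B genes gave -0.13 to 0.48, and none passed.

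The 4 eIF2α kinases sense different stresses, and 1 rose, 1 fell and 2 did not pass. Eif2ak1 encodes HRI, the haem-regulated kinase known from red cell precursors, where it is active when haem is short. Its signal was 3729 and 2648 in transitional 4 and 5, against 514 and 708 in transitional 1 and 2. Transitional 3 had 730 and marginal lymphomas 2047, 1124, 2117, 931, 886 and 979 in marginal 1 to 6. Transitional 4 and 5 had the highest values, followed by marginal 3 and 1. The difference was 2.35 ± 0.44 (SE; 5.10-fold; limma adjusted p = 0.0068), and a second probe set rose by 2.22 ± 0.44 (SE; limma adjusted p = 0.0080). The call held under every alternative tried, with adjusted p between 0.0020 and 0.0422.

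The summed erythroid markers had the same ends of the order as Eif2ak1: 61287 and 53146 in transitional 4 and 5, then 46100, 37927 and 37137 in marginal 3, 1 and 2, and 1037 to 5645 in transitional 1 to 3. Granulocyte marker sums were high on the same arrays, with 154412 and 88217 in transitional 4 and 5. Marginal 1 to 3 had 197192, 76817 and 146693. The sums were 8839 to 43478 in transitional 1 to 3 and 20700, 20129 and 10888 in marginal 4 to 6. The part of red cell or granulocyte precursors in the Eif2ak1 signal was not tested. Eif2ak3 encodes PERK, the kinase of the endoplasmic reticulum, and it fell. Its signal was 371 and 301 in transitional 4 and 5, against 907 and 834 in transitional 1 and 2, with 739 in transitional 3 and 586 to 949 in marginal lymphomas (median 641). Both lay far below the other 9 arrays. The difference was -1.34 ± 0.29 (SE; 2.53-fold lower; limma adjusted p = 0.0106). It missed the threshold without transitional 1 or 5 (adjusted p = 0.0617 and 0.0758), under median scaling (-0.92, adjusted p = 0.0628) and with the mean of all its probe sets (-0.50, adjusted p = 0.248).

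Eif2ak4, the amino acid sensor GCN2, had 86.8 and 50.1 in transitional 4 and 5, against 178 and 139 in transitional 1 and 2. Transitional 3 had 124, and marginal lymphomas 82.7 to 289 (median 140). The 2 pairs did not overlap, but the signal of marginal 1 was below that of transitional 4, and the difference of -1.07 ± 0.38 did not pass (SE; limma adjusted p = 0.0634). It passed without marginal 5 (adjusted p = 0.0490), with array weights (0.0325), with eBayes without the intensity trend (0.0476) and with the mean of a gene's probe sets (0.0472). Eif2ak4 has only 1 probe set, so its own difference was unchanged in that last setting. Eif2ak2 had 174 and 180 in transitional 4 and 5, against 159 and 168 in transitional 1 and 2, a difference of 0.11 ± 0.43 (SE; limma adjusted p = 0.878).

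**Figure D3:**
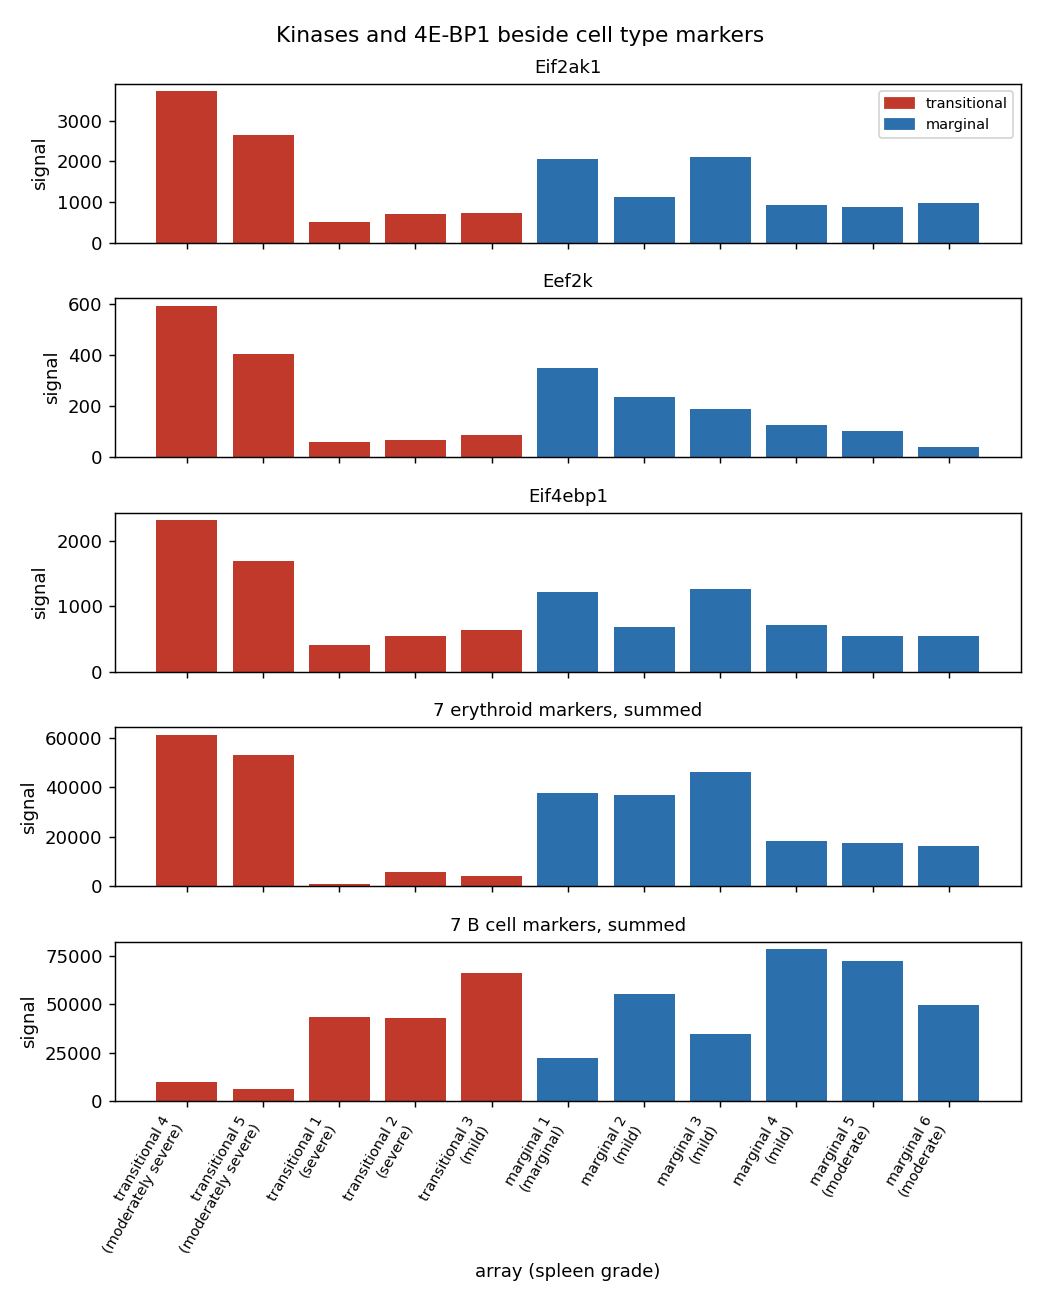
Signal of Eif2ak1, Eef2k and Eif4ebp1 and the summed signal of 7 erythroid and 7 B cell markers on each of the 11 arrays (bars from 0; red transitional, blue marginal; spleen grade in brackets). The 3 genes and the erythroid sum are highest in transitional 4 and 5, and the B cell sum is lowest there, at 9576 and 6175.

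The eIF3 scaffold had 11 tested subunits, of which 1 fell and none rose in the moderately severe lymphomas, with 7 of the 11 differences below 0 (median -0.06). Under median scaling 1 subunit rose, none fell and 3 of the 11 differences were below 0 (median 0.37), so the balance of the complex depends on the scaling. Eif3f, the subunit gene whose start holds the 11-base pyrimidine run, fell. Its signal was 7997 and 6672 in transitional 4 and 5, against 13918 and 14403 in transitional 1 and 2, with 10409 in transitional 3 and 7606 to 13525 in marginal lymphomas (median 11077). The 2 pairs were well apart, but marginal 3 lay between the moderately severe values. The difference was -0.95 ± 0.26 (SE; 1.94-fold lower; limma adjusted p = 0.0249), and the call was lost without transitional 1, 2, 4 or 5 (adjusted p 0.0655 to 0.146). It also missed under median scaling, at -0.52 with an adjusted p of 0.174. Eif2s3x, whose start holds a run of the same length, had a difference above 0 (0.66) that did not pass.

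Among the other subunits, Eif3h and Eif3e gave -0.69 ± 0.37 and -0.57 ± 0.31, and Eif3k 0.35 ± 0.21 (SE; limma adjusted p = 0.199, 0.201 and 0.259). Eif3m, which had the widest range of the eIF3 genes over the arrays (2.30 on the log2 scale), had 2424 and 3835 in transitional 4 and 5, against 3694 and 2692 in transitional 1 and 2. Its moderately severe and severe arrays overlapped, and the difference was -0.05 ± 0.44 (SE; limma adjusted p = 0.949). Its extremes were both marginal lymphomas, with 1048 in marginal 1 and 5226 in marginal 6.

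Of the 6 tested genes that act at the start codon and in subunit joining, none passed. Eif1ax, the X-linked gene of eIF1A, had 2898 and 3546 in transitional 4 and 5, against 1972 and 1434 in transitional 1 and 2 (0.92 ± 0.32 SE; limma adjusted p = 0.0622). Eif5, which makes eIF2 hydrolyse its GTP, had 7917 and 7890, against 5805 and 4081 in the same arrays (0.70 ± 0.26 SE; limma adjusted p = 0.0726). Of 3 other tested Eif5 probe sets 1 rose, by 0.86 (limma adjusted p = 0.0472), and another Eif1ax probe set gave 2.02 (limma adjusted p = 0.0521). In the brighter probe sets, both genes were higher in both moderately severe arrays than in every severe or marginal one. Eif6, which keeps free large subunits apart from small ones, had 2462 and 2812 in transitional 4 and 5, against 2113 and 2535 in transitional 1 and 2, and the pairs overlapped (0.18 ± 0.35 SE; limma adjusted p = 0.729). The highest Eif6 signal, 3947, was in marginal 6, and the other marginal lymphomas had 1777 to 2751.

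The elongation factors themselves did not pass in any comparison as deposited. Eef1a1, which delivers aminoacyl-tRNA, had 25967 and 25162 in transitional 4 and 5, against 33198 and 39377 in transitional 1 and 2. Transitional 3 had 41447 and marginal lymphomas 27626 to 48722 (median 31046). The moderately severe arrays were the lowest, yet only just below marginal 1, and the difference was -0.50 ± 0.25 (SE; limma adjusted p = 0.168). Eef1a2, the paralogue known from muscle and neurons, had 151 and 135 in transitional 4 and 5, against 185 and 152 in transitional 1 and 2. Its marginal values ran from 78.9 to 262 (median 149), and the difference of -0.21 ± 0.38 (SE; limma adjusted p = 0.717) became 0.17 with quantile normalization and 0.18 with median scaling.

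Eef2, the translocase, had 11200 and 7866 in transitional 4 and 5, against 16111 and 15156 in transitional 1 and 2. Transitional 3 had 13210 and marginal lymphomas 8523 to 14795 (median 11827), so transitional 4 lay inside the marginal range and transitional 5 below it. The difference was -0.73 ± 0.29 (SE; limma adjusted p = 0.0887), and it passed without marginal 3 (adjusted p = 0.0445) and with array weights (adjusted p = 0.0486). Eif5a, named as an initiation factor but acting in elongation through its hypusine residue, was the steadiest gene of all 52, with 16058 and 15032 in transitional 4 and 5, against 13501 and 15505 in transitional 1 and 2, and 12583 to 15752 in marginal lymphomas (median 13934). Its range over the 11 arrays was 0.35 on the log2 scale.

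The kinase that restrains Eef2 moved more than any other gene of the 51 in this contrast. Eef2k had 593 and 404 in transitional 4 and 5, against 58.8 and 67.4 in transitional 1 and 2. Transitional 3 had 86.0, and marginal 1 to 6 had 348, 236, 187, 125, 103 and 37.7. The moderately severe arrays were the highest and the severe ones among the 3 lowest, together with marginal 6. The difference was 2.68 ± 0.50 (SE; 6.40-fold; limma adjusted p = 0.0068), on a scale that understates the change of dim genes. The call held under the alternatives in which the gene was tested (adjusted p 0.0021 to 0.0436), and it was too dim to be tested when the filter kept the upper 40%. The erythroid sum again had its highest values in transitional 4 and 5 and its lowest in transitional 1 to 3. The granulocyte sum was 154412 and 88217 in transitional 4 and 5 and 197192 in marginal 1. In marginal 6, the lowest Eef2k array, it was 10888 and the erythroid sum 16380. The part of either cell type in the Eef2k signal was not tested. Of the other tested regulators of elongation, Eef1akmt1 and Eef1aknmt, both methyltransferases of eEF1A, gave -0.62 ± 0.34 and -0.60 ± 0.40 (SE; limma adjusted p = 0.205 and 0.296). The release factor Etf1 had 2035 and 2036 in transitional 4 and 5, against 1272 and 1822 in transitional 1 and 2 (0.42 ± 0.28 SE; limma adjusted p = 0.294).

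**Figure D4:**
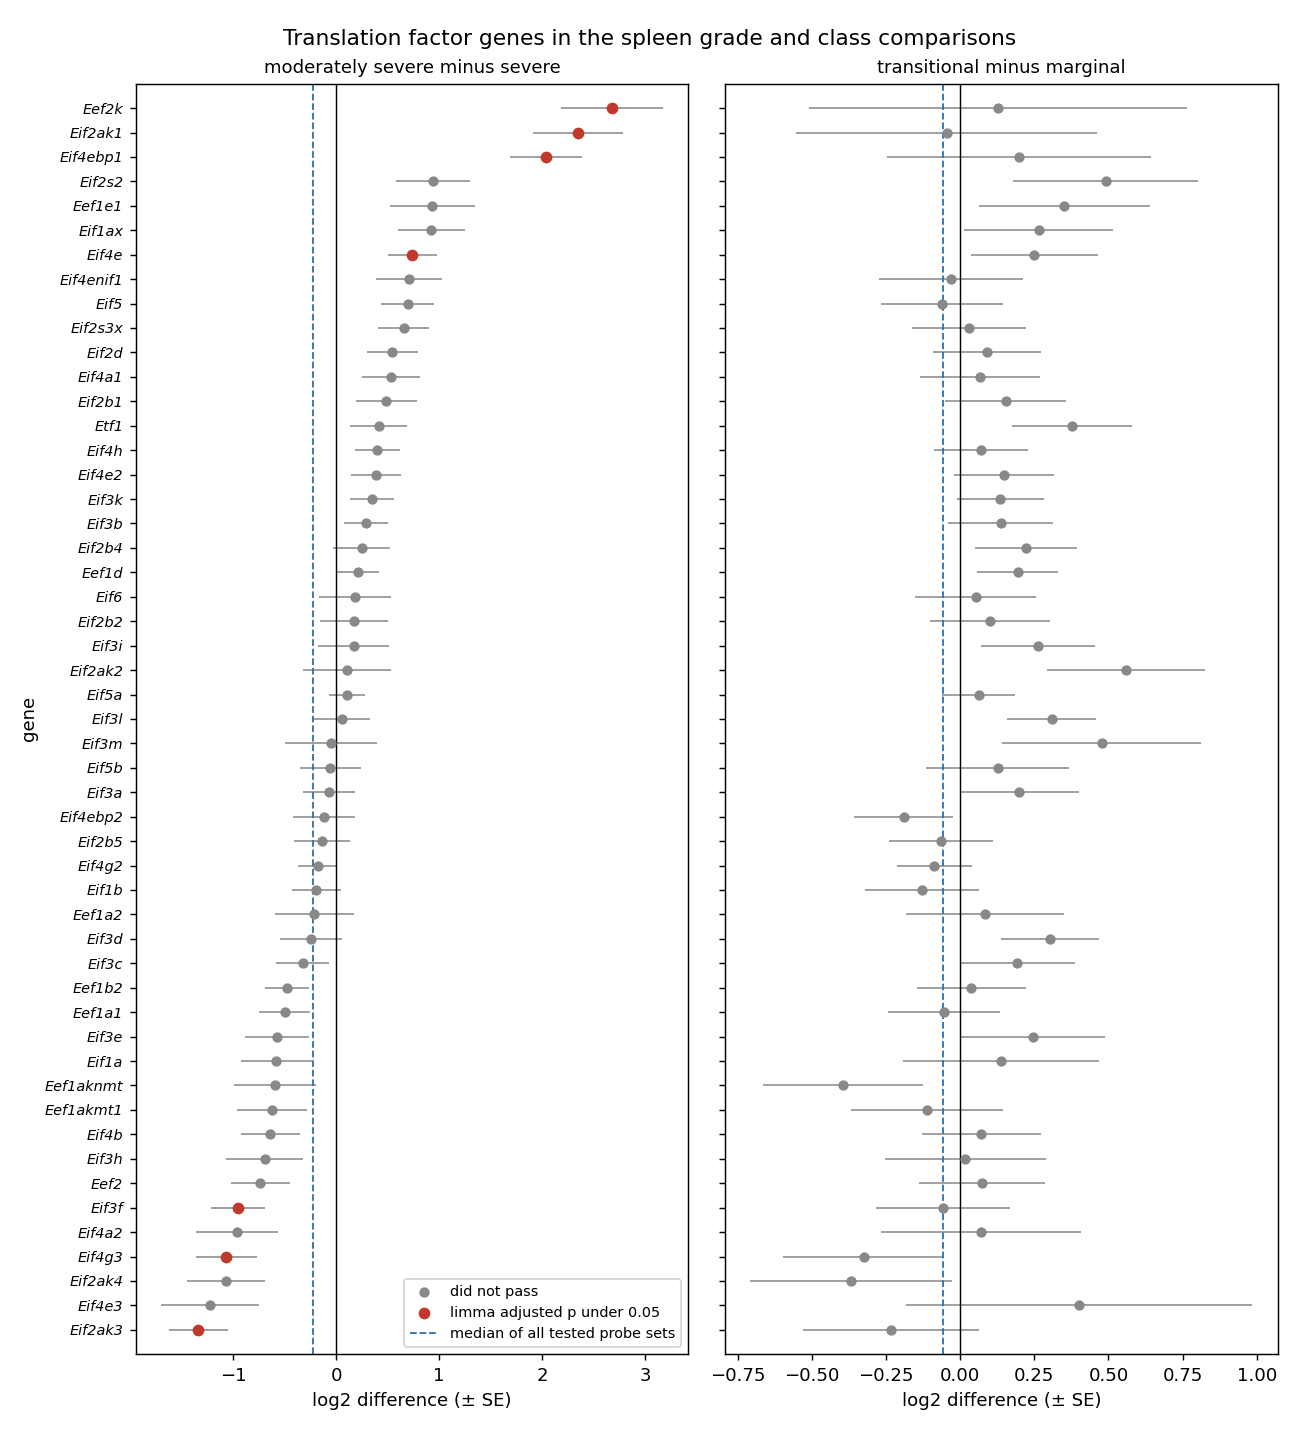
Log2 differences (points) with their SE (lines) for the 51 tested genes, moderately severe minus severe (left, 2 against 2 arrays) and transitional minus marginal (right, 5 against 6 arrays), in the order of the left panel. Red points passed at a limma adjusted p under 0.05 (7 left, 0 right), and the dashed line is the median over all tested probe sets (-0.22 left, -0.06 right).

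Genes known in mammals as TOP messengers form a list of their own. Of 10 listed, 9 were tested, and 8 of these had a difference below 0 between moderately severe and severe lymphomas, with a median of -0.57, against -0.22 over all tested probe sets. They ran from -0.95 for Eif3f to 0.21 for Eef1d, a nucleotide exchange subunit of eEF1, and 1 of the 9, Eif3f, passed. Of the 9, only Eif3f had an annotated start that met the pyrimidine search, and not every gene had a matched promoter. Under median scaling 7 of the 9 were below 0, with a median of -0.14 and none passing. Eif4b, a helper of the eIF4A helicase, had 2710 and 2072 in transitional 4 and 5, against 3260 and 4210 in transitional 1 and 2 (-0.64 ± 0.29 SE; limma adjusted p = 0.126). Eef1b2, another eEF1 exchange subunit, had 9879 and 11809, against 15474 and 14638 in the same arrays (-0.48 ± 0.22 SE; limma adjusted p = 0.128). Between classes 7 of the 9 were above 0, with a median of 0.07 and none passing.

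The rest of the pathway was read from 3 lists. Of the targets of eIF2α phosphorylation and Atf4, 14 of 16 were tested. In the moderately severe lymphomas 4 rose and none fell, with a median of 1.03. Over all tested probe sets 9.4% rose and 14.9% fell, with a median of -0.22. The genes of these 3 lists that passed in this contrast were chosen for naming after their values were seen. Ppp1r15a, the phosphatase subunit GADD34 that reverses eIF2α phosphorylation, had 5523 and 4977 in transitional 4 and 5, against 483 and 631 in transitional 1 and 2 (3.21 log2; limma adjusted p = 0.0030). Asns, asparagine synthetase, had 8388 and 4087, against 420 and 482 in the same arrays (3.66 log2; limma adjusted p = 0.0155). Marginal 1 and 3 came next for both genes, as they did for Eif2ak1, with 4666 and 2227 for Ppp1r15a and 2287 and 1987 for Asns. Atf4 had 6535 and 6434 in transitional 4 and 5, against 2642 and 2593 in transitional 1 and 2 (1.30 log2; limma adjusted p = 0.0285). Ddit3, the factor CHOP, had 1067 and 965, against 510 and 467 in the same arrays (1.03 log2; limma adjusted p = 0.0231). The Asns, Atf4 and Ddit3 calls were lost without transitional 1, 2, 4 or 5 (adjusted p 0.0505 to 0.113), and that of Atf4 also with the mean of its probe sets (0.66, adjusted p = 0.0749), while Ppp1r15a kept its call in all settings.

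Between classes, 14 of the 14 tested targets of eIF2α phosphorylation had a difference above 0, with a median of 0.52 against -0.06 over all tested probe sets, and none passed. Psat1, a serine synthesis enzyme, had 1162, 928, 665, 733 and 753 in transitional 1 to 5, against 730, 314, 488, 504, 419 and 703 in marginal 1 to 6. Only transitional 3 fell below any marginal value, and the difference was 0.70 log2 (limma adjusted p = 0.999), 1 of the 14 with an unadjusted p under 0.05. Ddit3 gave 0.56 (limma adjusted p = 0.999).

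Of other translation factors, 16 of 20 listed genes were tested, 2 rose and 1 fell in the moderately severe lymphomas. Beside this list and the next, 9.4% of all tested probe sets rose and 14.9% fell. Pabpc4, an inducible poly(A)-binding protein, had 6629 and 5897 in transitional 4 and 5, against 986 and 1441 in transitional 1 and 2 (2.37 log2; limma adjusted p = 0.0111). Pelo, which rescues stalled ribosomes, had 624 and 594, against 98.3 and 194 in the same arrays (2.01 log2; limma adjusted p = 0.0144). Dph6, the enzyme of the last step of diphthamide synthesis on eEF2, had 128 and 132 in transitional 4 and 5, against 342 and 343 in transitional 1 and 2 (-1.29 log2; limma adjusted p = 0.0272). The first pair of calls was lost without transitional 1, 4 or 5, and that of Dph6 without transitional 1, 2, 4 or 5 (adjusted p 0.0561 to 0.108). Dph6 also missed with quantile normalization (-0.97, adjusted p = 0.0803), median scaling (-0.90, adjusted p = 0.115) and no filter (adjusted p = 0.0505). Of the genes of mTOR and MNK control, 12 of 16 were tested and 1 fell: Pdcd4, an inhibitor of eIF4A, had 1140 and 1084 in transitional 4 and 5, against 2617 and 1853 in transitional 1 and 2 (-0.98 log2; limma adjusted p = 0.0265), a call lost without transitional 1, 4 or 5 (adjusted p 0.0917 to 0.175) and under median scaling (-0.55, adjusted p = 0.239). Between classes none of either list passed. The nearest were Abce1, which recycles ribosomes, at 0.41 and Dph2 at -0.41, and in mTOR and MNK control Mknk1, a kinase of eIF4E, at 0.36 and Tsc1, an inhibitor of mTOR, at -0.48 (limma adjusted p = 0.999 for each).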

How the data were processed

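One array was measured for each of 11 lymphomas (5 transitional, 6 marginal). The deposited values are linear array intensities from MAS5 (per the submitters' processing notes, which name no version). They were used as deposited, and their 2% trimmed mean was 500.2 on all arrays, so a shift of most transcripts one way would not show. RNA was primed with poly-dT, per the labels' protocols, so signal far from the 3' end depends on RNA integrity. No batch record was used, and the number of arrays limits the precision. No 2 arrays held identical values, and the labels name no separate animal identities, so p-values cover only the spread among these lymphomas, which may be technical in part.

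Of 22690 probe sets in the table, 64 controls were left out. Symbols are those of GEO's platform annotation, brought up to date by Entrez identifier from RefSeq (GRCm38.p6). Of 22626 probe sets, 20380 had 1 gene, 691 several and 1555 none, and only the first were named. A further 6 probe sets carry a symbol of this family beside other genes and were left out. After adding 16 and taking log2, the upper 60% by mean (13576 probe sets, 7740 genes) were fitted with limma 3.58.1 in R 4.3.3 (lmFit, eBayes with an intensity trend, two-sided) and adjusted with Benjamini-Hochberg over all of them, at a threshold of 0.05. The fits were class, spleen grade rank alone and with class, and grade as 5 unordered groups for moderately severe minus severe. The fits were tested on simulated data. Promoters came from RefSeq (GRCm38.p6), and 41 of the 52 genes matched.

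The genes and lists were chosen with earlier results of these data known. Signals on single arrays or ranges over a class are given for genes past a threshold, the 3 nearest it in each direction, the 3 with the widest range and a set of core factors. From each pathway list, the 2 genes nearest the threshold between classes are named. The alternatives were other offsets (1 and 64), scalings, filters, variance models, array weights, the mean of a gene's probe sets, arrays left out, the replicate number as a block, and animals with failure to nest alone.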

Additional observations from a re-analysis of the deposited data

Results flagged for a closer look

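In 4 genes, 1 marginal lymphoma lay far from the other 5 for the spread within its class, of 102 groups of arrays examined; chance flags about 1 in 20 groups. Marginal 1, the animal with the marginal spleen grade and a neck tumor, had the highest Eif3b signal of its class, 1975, against 1173 to 1411 in the others. It also had the lowest signal of the helicase gene Eif4a2, 2926, against 5342 to 6600. Marginal 3 had the lowest Eif4b signal, 2275, against 2910 to 3320. Marginal 5 had the lowest signal of Eif4e2, which encodes the cap-binding repressor 4EHP, at 849, against 1090 to 1256. The cause of these values was not tested.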

How the results depend on the processing

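The 23 alternatives left the count of genes that passed at 0 between classes and at 0 for spleen grade alone in every alternative that could be run. With class in the model the count was 0 to 4 when 1 array was left out, 4 without transitional 3 (8.44% of all tested probe sets passing). Between moderately severe and severe animals it was 7, with 13 under median scaling (24.1% of all tested probe sets passing), 14 with array weights (33.0%) and 3 to 8 when 1 array was left out (6.19% to 25.4%), against 24.3% as deposited. A grade left with 1 array is assumed to vary like the others. The median class difference of the 51 genes (0.09) became 0.21 under median scaling and 0.08 to 0.15 when 1 array was left out. The sign turned for Eif4g3 between classes (0.12) and with grade (0.0087) without transitional 4 and 5, and for Eef1a2 between moderately severe and severe animals under quantile normalization (0.17) and median scaling (0.18). Eif4ebp1 lost its call with the mean of its probe sets (0.89, adjusted p = 0.0727). With the replicate number as a block, 0 genes passed between classes and the median difference was 0.11. Same-numbered lymphomas deviated from their class means with r of -0.45 to -0.09 across probe sets. Differently numbered lymphomas were not compared in this way, so these values cannot decide whether the numbers pair the samples. Dim genes such as Eef2k and Eif2ak2 lie near the low-signal filter.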
